A study of Homo sapiens with 4 samples.

Results

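The aldehyde dehydrogenases described here are 10 genes of the human ALDH family, ALDH1A1, ALDH1A2, ALDH1A3, ALDH1B1, ALDH2, ALDH3A1, ALDH3A2, ALDH3B1, ALDH7A1 and ALDH9A1. They were taken by symbol from an expression table of 18134 genes, and all 10 were found in it. The family was of interest because ALDH1A1 is one of the stemness markers of the study. PC9, a human lung adenocarcinoma cell line with an activating EGFR mutation, had been infected with lentivirus carrying a hairpin against TPX2, a spindle assembly factor and activator of Aurora kinase A, or a negative control hairpin. Both groups had been kept under antibiotic selection to make stable lines, named shTPX2 and shNC, and poly(A) RNA was sequenced from 2 libraries of each, 4 in all. The comparison asks how transcripts of these enzymes differ between cells with and without TPX2 knockdown.

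Aldehyde dehydrogenases oxidise aldehydes to carboxylic acids with NAD or NADP as the electron acceptor, and a cysteine in the active site forms the covalent intermediate with the aldehyde. The ALDH1A enzymes turn retinaldehyde into retinoic acid, the ligand of the RAR nuclear receptors. ALDH activity, much of it from ALDH1A1 or ALDH1A3, is widely used to mark stem-like cells in carcinomas of the lung and other organs. The other members clear acetaldehyde, fatty and aromatic aldehydes, products of lipid peroxidation, and aldehyde intermediates of lysine breakdown and carnitine synthesis.

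The coding sequence around the active-site cysteine shows what the members share and how far they have diverged, which is also what lets short reads tell them apart. For 9 members, each line gives 36 bases of the coding strand from GRCh38 with the GENCODE v29 exons joined, 5′ to 3′, and the codon in capitals is that of the catalytic cysteine.
ALDH1A1: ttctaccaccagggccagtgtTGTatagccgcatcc
ALDH1A2: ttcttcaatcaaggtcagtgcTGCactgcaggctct
ALDH1A3: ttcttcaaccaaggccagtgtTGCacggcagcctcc
ALDH1B1: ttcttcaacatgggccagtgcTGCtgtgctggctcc
ALDH2: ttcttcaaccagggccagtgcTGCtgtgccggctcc
ALDH3A1: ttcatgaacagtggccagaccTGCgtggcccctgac
ALDH3A2: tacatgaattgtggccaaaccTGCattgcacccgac
ALDH3B1: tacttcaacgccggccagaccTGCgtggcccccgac
ALDH9A1: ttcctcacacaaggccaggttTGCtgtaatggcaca

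The windows were found with a protein pattern of the active site that requires this cysteine, so all 9 hold its codon by construction. The codon is written TGT in ALDH1A1 and TGC in the rest. Of the 36 bases, ALDH1A3 shares 28 with ALDH1A1 and ALDH2 shares 27, whereas ALDH9A1 shares 17 and ALDH3A2 shares 16. In ALDH1A1 the window lies in coding exon sequence at chr9:72917034-72917069 on the minus strand, in exon 9 of 13, around codon 303. In ALDH1A3 it lies at chr15:100900610-100900645 on the plus strand, in exon 9 around codon 314, and in ALDH2 at chr12:111792633-111792668 on the plus strand, in exon 9 around codon 319. In ALDH1B1 it lies at chr9:38396682-38396717 on the plus strand, in exon 2 of 2. The ALDH3A1 window lies at chr17:19741156-19741191 on the minus strand, in exon 5, and in ALDH3A2 at chr17:19657764-19657799 on the plus strand, in exon 6. The windows of ALDH1A2 (chr15:57963999-57964034, minus strand, exon 9) and ALDH3B1 (chr11:68021631-68021666, plus strand, exon 7) are each within 1 exon. That of ALDH9A1 joins the end of exon 6 to the start of exon 7 and spans chr1:165669433-165679459 on the minus strand. ALDH1A1 and ALDH1B1 are thus both on chromosome 9, ALDH1A2 and ALDH1A3 on chromosome 15, and ALDH3A1 and ALDH3A2 on chromosome 17. The whole ALDH1A1 gene (ENSG00000165092.12) spans chr9:72900662-73080442, and ALDH2 (ENSG00000111275.12) spans chr12:111766887-111817529.

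Sharing of reads was gauged from stretches of 50 bases in the GENCODE transcripts of each member that also occur, on either strand, in a transcript of another gene. ALDH1A1 had 0% of its stretches shared. ALDH1A3 had 24.3% shared, almost all with AC015712.2, an antisense gene on the opposite strand, and ALDH2 had 9.45% shared, most of it with AC002996.1, an overlapping gene on the same strand. The other 7 members had between 0.212% and 4.63% shared, and for ALDH7A1 the partner with the largest part was the pseudogene ALDH7A1P1, at 1.84%. The strand setting of the counting is not given in the sources used here, so reads of ALDH1A3 and its antisense partner cannot be told apart, and the values of ALDH1A3 and ALDH2 are uncertain to that extent.

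The 4 libraries were even in depth, with totals of expected counts between 20906441 and 21972583. Levels are given as TPM, which is scaled for gene length and for the total of the library. The targeted gene, TPX2, had control levels of 55.0 (shNC 1) and 111.9 TPM (shNC 2) and knockdown levels of 43.4 (shTPX2 1) and 43.8 TPM (shTPX2 2). Knockdown libraries were thus the lowest, but shNC 1 was nearer to them than to shNC 2. The edgeR quasi-likelihood test gave a log2 fold change of −0.81 (SE 0.32, adjusted p = 0.618). It was −0.24 without shNC 2 and −1.21 without shNC 1. Epithelial markers were high in every library, with EPCAM at 201 to 293 TPM, while the lung lineage markers NKX2-1 and NAPSA lay at 0.04 to 1.55 and 0.83 to 1.67 TPM. Of 7 fibroblast markers 6 were under 1 TPM in every library, and the list summed to 9.19 to 12.4 TPM (shNC) against 5.90 to 8.29 TPM (shTPX2). Leukocyte markers summed to 134.9 to 252.6 and 185 to 201 TPM, mostly CD68, with PTPRC under 1 TPM throughout, and endothelial markers to 19.9 to 32.6 and 31.1 to 36.5 TPM. The part of other cell types in the results was not tested. In RNA from a whole culture, fewer cells that express a gene and less RNA of it per cell cannot be told apart. No label says that the libraries of a group came from separate cultures, so the p-values measure only the spread between these libraries.

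Among the members, ALDH1A1, ALDH1B1 and ALDH3A2 were higher in both shTPX2 libraries than in both shNC libraries, and ALDH2 and ALDH7A1 were lower in both. ALDH3A1 was higher in both in counts scaled with TMM factors, but overlapped between the groups in TPM and in counts scaled by library totals. ALDH1A3, ALDH3B1 and ALDH9A1 overlapped between the groups, and ALDH1A2 was barely detected. None of these differences passed the edgeR test at an adjusted p under 0.05.

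By that test 0 of the 9 members tested were called, against 0% of the 14048 genes tested. ALDH1A2 did not pass the filter on low counts and was not tested. The smallest adjusted p among the members was 0.5785 (edgeR). At an unadjusted p under 0.05 edgeR marked ALDH1A1 and ALDH1B1 as higher and ALDH2 as lower, 3 of 9 members, against 8.03% of all genes (3.13% higher and 4.9% lower). DESeq2 called 0 members and 111 genes, which is 0.79% of those tested. The DEG criteria taken from the study's methods are looser. They were applied here as an unadjusted limma voom p no larger than 0.1 together with a log2 fold change of 0.3 or more, up or down, where the base of the logarithm, the unadjusted p and the use of both directions are readings of the methods. By them 6 of the 9 members were DEGs (66.7%), against 14.2% of all genes. ALDH1A1, ALDH1B1, ALDH3A1 and ALDH3A2 made 4 DEGs on the higher side, where the background was 6.24%. ALDH2 and ALDH7A1 made 2 on the lower side, where the background was 7.99%. Of all 18 ALDH genes tested, members included, 7 were DEGs (38.9%). The members were chosen with earlier results of these data known. Their excess over the background, here and below, therefore cannot be read as a trait of the family.

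The members did not shift one way. Their median log2 fold change was 0.03, with 5 above 0 and 4 below, beside a median of −0.01 over all genes tested. The median size of the change, regardless of sign, was 0.40 among the members and 0.21 among all genes. In TMM-scaled CPM (counts relative to the library total after its adjustment by the TMM factor) the groups did not overlap for 6 of the 9 members tested, where the background was 39.6% of all genes. For 4 members shTPX2 was above (background 19.4%) and for 2 below (background 20.2%). The count of DEGs among the members rested on single libraries. It was 1 (ALDH3A1) without shTPX2 2, where 7.03% of all genes were DEGs, and 3 (ALDH1A1, ALDH2 and ALDH7A1) without shNC 1, where 24.3% were. It was 4 (ALDH1A1, ALDH1B1, ALDH2 and ALDH3A2) without shTPX2 1, where 10.9% of all genes were DEGs. Without shNC 2 it was 5, with 13.1% of all genes, as ALDH2 and ALDH7A1 left and ALDH3B1 entered on the lower side. With libraries scaled by their totals only it was 4 (ALDH1A1, ALDH1B1, ALDH2 and ALDH7A1), with 14.4% of all genes.

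**Figure D1:**
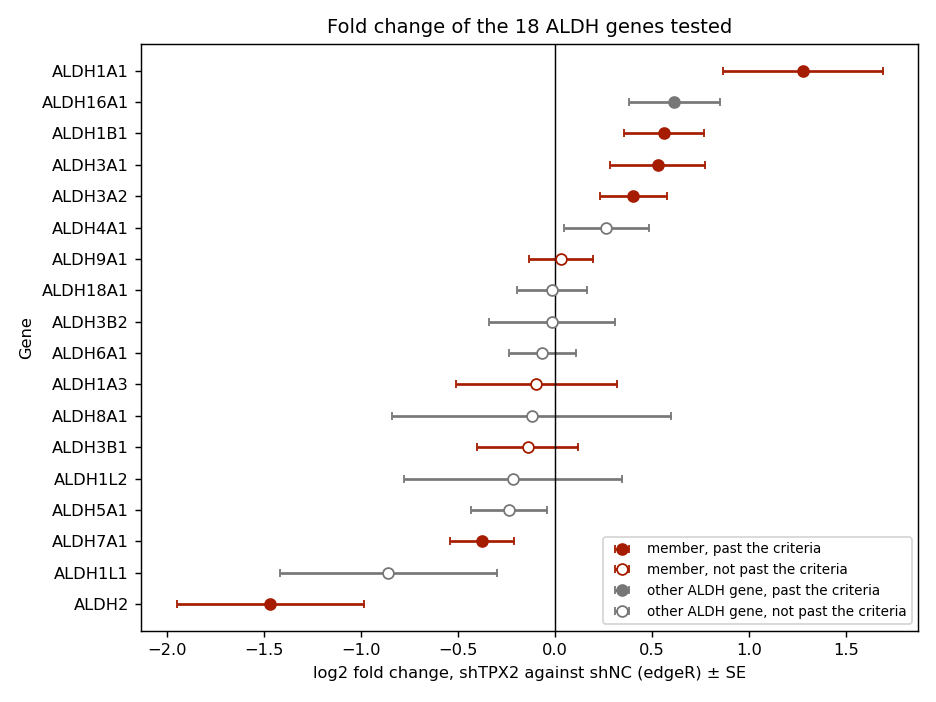
Log2 fold change of shTPX2 over shNC (edgeR) for the 9 tested members and the 9 other ALDH genes, with bars of 1 SE, filled where the gene met the DEG criteria. The members spread from −1.47 for ALDH2 to 1.28 for ALDH1A1, with ALDH9A1 at 0.03.

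Among the retinaldehyde-oxidising enzymes, ALDH1A1 had the largest positive log2 fold change of any member. Its expected counts were 881, 784, 1090 and 2738 in shNC 1, shNC 2, shTPX2 1 and shTPX2 2, the order used for all values of 4 libraries here. In TPM these were 35.7, 32.0, 41.9 and 109.8, with means of 33.8 ± 2.57 for shNC and 75.8 ± 48.0 for shTPX2 (SD, n = 2 each, as for all means here). Both shTPX2 libraries were above both shNC libraries, yet they differed from each other by 2.62-fold, which is more than the 2.24-fold between the group means. The log2 fold change was 1.28 (SE 0.41, edgeR adjusted p = 0.579), and over the alternatives the adjusted p ranged from 0.125 with DESeq2 to 0.9999 with edgeR without shTPX2 2. Without shTPX2 2 it was 0.46 and no longer met the DEG criteria, and without shTPX2 1 it was 1.81. The direction was thus the same in both shTPX2 libraries, whereas the size came mostly from shTPX2 2.

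ALDH1A3, the second cytosolic retinaldehyde dehydrogenase that PC9 expressed, was at 30.9, 63.8, 52.7 and 27.8 TPM. The high and low libraries were split across the groups, with 1 of each in shNC and in shTPX2, and the log2 fold change was −0.10 (SE 0.42, edgeR adjusted p = 0.967). Leaving out shNC 2 gave 0.48 and leaving out shTPX2 1 gave −0.66, so its sign depended on which library was used. ALDH1A2, which makes retinoic acid in the embryo, was at 0.29, 0.63, 0.42 and 0.29 TPM, from expected counts of 7.51, 14.6, 10.1 and 6.95. The groups overlapped at this trace level, and no difference was tested.

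The balance of the ALDH1A enzymes differed from library to library. Their summed TPM was 66.9, 96.4, 95.0 and 137.9, with shNC 2 slightly above shTPX2 1, so the groups overlapped. The ratio of ALDH1A1 to ALDH1A3 was 1.15 and 0.502 in shNC and 0.795 and 3.95 in shTPX2. ALDH1A1 made up 79.6% of the sum in shTPX2 2 and between 33.2% and 53.3% in the other 3 libraries. In shTPX2 2 the high ALDH1A1 stood beside the lowest ALDH1A3 of the 4 libraries, and in shNC 2 the highest ALDH1A3 stood beside the lowest ALDH1A1.

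The promoters of these 2 enzymes are shown because their transcripts differed in which libraries were high. Each line gives the 100 bases before the transcription start on the gene's strand, from RefSeq (GRCh38.p14), with the letters CCAAT, a common proximal promoter element, in capitals. The ALDH1A1 bases lie at chr9:72953054-72953153 on the minus strand, and those of ALDH1A3 at chr15:100879731-100879830 on the plus strand.
ALDH1A1: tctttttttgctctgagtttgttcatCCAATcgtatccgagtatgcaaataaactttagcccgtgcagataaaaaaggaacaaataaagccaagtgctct
ALDH1A3: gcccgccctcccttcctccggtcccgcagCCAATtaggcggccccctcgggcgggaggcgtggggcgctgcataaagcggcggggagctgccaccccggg

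The motif begins at −74 in ALDH1A1 and at −71 in ALDH1A3, on the sense strand in both. Searched on both strands of the 250 bases before the start, CCAAT was in 5 of the 8 members found in the promoter table and in 33.0% of 27305 promoters. The window around it differs in composition, with 38.4% G and C over 250 bases in ALDH1A1 and 82.4% in ALDH1A3. GGGCGG, the GC box, was absent from the ALDH1A1 window and occurred 6 times in that of ALDH1A3, counting both strands. These letters describe the windows and do not show binding.

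The mitochondrial acetaldehyde-oxidising enzymes had fold changes of opposite sign. ALDH2, the main enzyme that clears acetaldehyde made from ethanol, was at 3.22, 7.35, 1.86 and 1.64 TPM, from expected counts of 69, 156, 42 and 35. Both knockdown values were under both control values, with means of 5.29 ± 2.92 for shNC and 1.75 ± 0.156 for shTPX2, 3.02-fold higher in shNC. The log2 fold change was −1.47 (SE 0.48, edgeR adjusted p = 0.579), the lowest among the members tested. It was −0.79 without shNC 2, the library with the highest value, and −1.92 without shNC 1, and ALDH2 was no DEG without shNC 2 or without shTPX2 2. Between shNC 1 and shNC 2 the level of ALDH2 differed by 2.28-fold and that of TPX2 by 2.03-fold, with shNC 2 the higher for both genes. This was not particular to ALDH2. ALDH1A3 (2.06-fold) and ALDH1L1 (2.46-fold), whose groups overlapped, were also higher in shNC 2, while ALDH3B1 (1.53-fold) was higher in shNC 1.

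ALDH1B1, its close mitochondrial relative, was at 13.95, 16.1, 17.6 and 23.3 TPM. All shTPX2 values lay above the shNC values, with means of 15.0 ± 1.54 and 20.5 ± 4.02, and the log2 fold change was 0.56 (SE 0.21, edgeR adjusted p = 0.601). Leaving out 1 library gave 0.38 to 0.73, and ALDH1B1 was no DEG without shNC 1 or without shTPX2 2. ALDH1B1 was the more abundant of this pair in every library, and the ratio of ALDH1B1 to ALDH2 in TPM was 4.33 and 2.20 in shNC and 9.47 and 14.2 in shTPX2. As ALDH1B1 was higher and ALDH2 lower in both shTPX2 libraries, the separation of this ratio adds nothing to theirs.

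**Figure D2:**
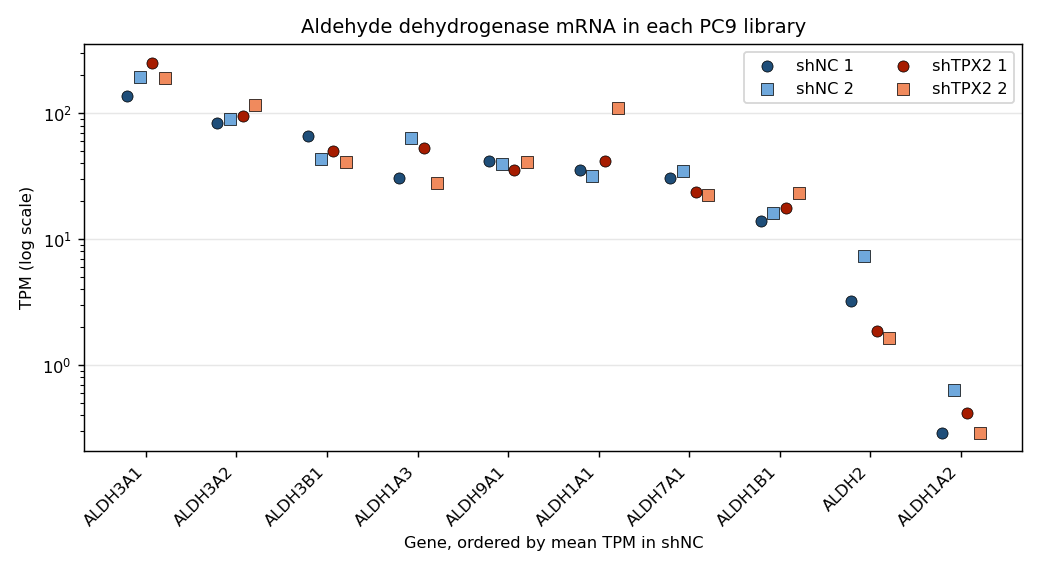
TPM of each member in each library, with 1 point per library and a log axis. ALDH3A1 is highest in all 4 libraries and ALDH1A2 lowest, and the shTPX2 points of ALDH2 and ALDH7A1 lie below their shNC points.

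Of the enzymes of fatty, aromatic and lipid-derived aldehydes, ALDH3A1 was the most abundant member in every library. ALDH3A1, which oxidises medium-chain and aromatic aldehydes and is a major soluble protein of the cornea, was at 138, 196, 253.5 and 192 TPM, with means of 167 ± 40.6 and 222.5 ± 43.8. In TPM shTPX2 2 lay between the shNC libraries, so the groups overlapped, while in TMM-scaled CPM both shTPX2 libraries were above. With counts relative to the library totals alone, shTPX2 2 was again below shNC 2. The log2 fold change was 0.53 (SE 0.25, edgeR adjusted p = 0.653), 0.29 without shTPX2 1 and 0.78 without shNC 2. ALDH3A1 ceased to be a DEG without shNC 1, without shTPX2 1 or with scaling by totals only.

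ALDH3A2, the fatty aldehyde dehydrogenase of the endoplasmic reticulum whose loss causes Sjögren-Larsson syndrome, lies near ALDH3A1 on chromosome 17. It was at 83.7, 90.4, 96.1 and 116 TPM, with means of 87.1 ± 4.74 and 106 ± 14.3. The groups did not overlap, although shTPX2 1 exceeded shNC 2 only slightly, and the log2 fold change was 0.40 (SE 0.17, edgeR adjusted p = 0.634), with 0.29 to 0.52 when 1 library was left out. ALDH3A2 was no DEG without shNC 1, without shTPX2 2 or with scaling by totals only. The ratio of ALDH3A1 to ALDH3A2 was 1.65 and 2.16 in shNC and 2.64 and 1.65 in shTPX2, with no separation between the groups.

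ALDH3B1, a membrane-associated enzyme that acts on aldehydes from lipid peroxidation, was at 66.0, 43.1, 50.5 and 41.2 TPM. The groups overlapped, and shNC 1 was the high library. The log2 fold change of −0.14 (SE 0.26, edgeR adjusted p = 0.915) became 0.23 without shNC 1 and −0.44 without shNC 2, where ALDH3B1 met the DEG criteria.

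The members that work in amino acid and carnitine metabolism were ALDH7A1, lower in shTPX2, and ALDH9A1, with overlapping groups. ALDH7A1, which oxidises the aldehyde formed in lysine breakdown and is mutated in pyridoxine-dependent epilepsy, was at 30.6, 35.1, 23.9 and 22.6 TPM. The shTPX2 libraries were close together and under both shNC libraries, with means of 32.8 ± 3.22 and 23.3 ± 0.933, or 1.41-fold higher in shNC. The log2 fold change was −0.38 (SE 0.17, edgeR adjusted p = 0.647) and stayed between −0.44 and −0.30 when any 1 library was left out, the narrowest such range among the 6 DEGs. It nevertheless missed the DEG criteria without shNC 2, without shTPX2 1 and without shTPX2 2. ALDH9A1, which oxidises trimethylaminobutyraldehyde on the path to carnitine, was at 42.1, 39.6, 35.5 and 41.2 TPM. Its groups overlapped and its log2 fold change was 0.03 (SE 0.17, edgeR adjusted p = 0.975), or −0.037 when libraries were scaled by their totals only.

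**Figure D3:**
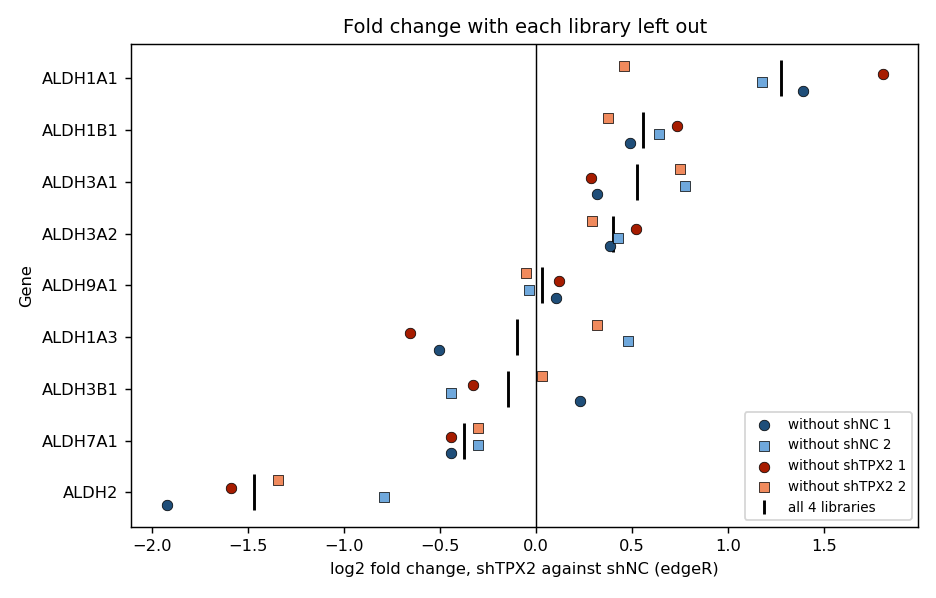
Log2 fold change of the tested members in edgeR with all 4 libraries (bars) and with each library left out in turn (points). ALDH1A1 moves from 0.46 to 1.81 and ALDH2 from −1.92 to −0.79, while ALDH1A3, ALDH3B1 and ALDH9A1 cross 0.

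Ordered by level in shNC, ALDH3A1 stood first and ALDH3A2 second, each above the next gene in both libraries. ALDH3B1, ALDH1A3 and ALDH9A1 followed, and neighbours among these 3 overlapped in their values. ALDH1A1 and ALDH7A1 came next and overlapped with each other, and then ALDH1B1, ALDH2 and ALDH1A2, each separate from the one before. In shTPX2 the ends of the order were the same, but ALDH1A1 took the third place by its mean. ALDH3A2, ALDH1A1, ALDH3B1, ALDH1A3 and ALDH9A1 formed a run in which the range of each gene over the 2 libraries overlapped that of the next. Within each shTPX2 library ALDH3A2 was still above ALDH1A1. ALDH7A1 and ALDH1B1, which were apart in shNC, overlapped in shTPX2.

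The summed level of the 10 members was 444.5, 523.6, 574 and 575.6 TPM. Both shTPX2 libraries were above both shNC libraries, with means of 484 ± 55.9 and 575 ± 1.14, a ratio of 1.19. The group means differed by 90.7 TPM. ALDH1A1 and ALDH3A1 together, picked after their values were seen, differed by 97.7 TPM and the other 8 members by −6.92 TPM. Between the shTPX2 libraries these 2 genes stood in opposite order. ALDH3A1 made up 44.2% of the sum in shTPX2 1 and 33.3% in shTPX2 2, and ALDH1A1 made up 7.30% and 19.1%. In shNC ALDH3A1 made up 31.1% and 37.3%, and ALDH1A1 8.02% and 6.12%. The sum is given as a description without a test, and an exact permutation test of 2 libraries against 2 cannot reach a p of 0.05.

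The other 9 ALDH genes of the table had a median size of log2 fold change of 0.22, beside 0.40 for the members, and the difference was not tested. All 9 were tested, and 1 met the DEG criteria, 11.1% of them beside the background of 14.2%. Their median log2 fold change was −0.07, with 2 above 0 and 7 below. The DEG was ALDH16A1, an atypical member that lacks the catalytic cysteine in mammals, at 68.2, 45.2, 75.2 and 85.3 TPM. Its shTPX2 libraries were above both shNC libraries, with a log2 fold change of 0.61 (SE 0.23, edgeR adjusted p = 0.612). ALDH5A1, the succinic semialdehyde dehydrogenase of GABA breakdown, was at 37.5, 29.6, 27.8 and 24.5 TPM and was no DEG. ALDH3B2, the close paralog of ALDH3B1, was at 67.6, 95.4, 50.3 and 98.0 TPM, so its high libraries were split across the groups. The ratio of ALDH3B2 to ALDH3B1 was 1.02 and 2.22 in shNC and 0.996 and 2.38 in shTPX2.

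Genes around the ALDH1A reaction were read from a list of 20 retinoid genes, of which 19 were in the table and 17 were tested. DEGs on the higher side numbered 3 and on the lower side 0, which is 17.6% of the list beside the background of 14.2%, and the median log2 fold change was 0.14. STRA6, the membrane receptor for retinol uptake, was at 54.2, 50.7, 82.6 and 80.9 TPM, with both shTPX2 libraries well above both shNC libraries and a log2 fold change of 0.78 (SE 0.16, edgeR adjusted p = 0.46). It was the 1 gene of the list that DESeq2 called (adjusted p = 0.0304), against 0.79% of all genes. CYP26A1, which degrades retinoic acid and is a known target of its receptors, was at 0.50, 0.82, 0.90 and 2.56 TPM. Its highest value was in shTPX2 2, and the other 3 libraries were under 1 TPM. RXRA, the partner receptor of the RARs, was at 68.8, 59.6, 81.9 and 75.8 TPM, a log2 fold change of 0.42 (SE 0.18, edgeR adjusted p = 0.635). The retinoic acid receptors had log2 fold changes of 0.15 for RARA, −0.17 for RARG and −0.82 for RARB, none of them a DEG.

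Other enzymes of aldehydes and alcohols were read from a list of 18 genes, of which 15 were in the table and 12 were tested. The single DEG, 8.33% of those tested beside the background of 14.2%, was AKR1B10, an aldo-keto reductase that reduces retinaldehyde and other aldehydes, at 948, 1145, 1338 and 1842 TPM. Its groups did not overlap and its log2 fold change was 0.73 (SE 0.22, edgeR adjusted p = 0.579). Besides ALDH1A1, the stemness markers of the study were a list of 8 genes, of which 7 were tested and 0 were DEGs, a count too small to set apart from the background of 14.2%. MYC was at 52.4, 47.7, 84.3 and 46.6 TPM, with shTPX2 1 alone high. SOX2 was at 1.26, 1.04, 0.58 and 4.0 TPM, with shTPX2 2 high and shTPX2 1 the lowest.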

How the data were processed

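RNA from 4 libraries of PC9 cells was read from 1 deposited table of 18134 genes, with the group and number of each library taken from the sample labels. The deposited expected counts are the authors' estimates of the reads of each gene, without normalization, and 42.2% to 44.6% of the genes in each library had a value that was not whole. The authors also deposited TPM and FPKM values, scaled for transcript length and library size. According to the paper's methods SOAPnuke filtered the reads, HISAT2 or Bowtie2 aligned them and RSEM or StringTie quantified them, whereas the submitters' processing notes name HISAT2, featureCounts, DESeq2 and GRCh38, so the counter is uncertain. Which annotation was used is not given in the sources used here. The deposited table also holds group averages of the authors, which were used in no test.

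Before testing, the expected counts were rounded (0 decimals), filtered with filterByExpr, which kept 14048 genes, and scaled by TMM. Totals were 20906441 to 21972583 counts per library, and the common dispersion was 0.0485. Whether depth or the spread between libraries limited the tests more was not tested. shTPX2 was compared with shNC by the quasi-likelihood test of edgeR 4.0.16 in R 4.3.3, with Benjamini-Hochberg adjustment over all tested genes. The DEG criteria were applied with limma 3.58.1 after voom, and DESeq2 1.42.0 was an alternative. The edgeR and limma voom tests were run on simulated data first, and DESeq2 was not. TPM was used for levels, with no filter. Sequences came from GENCODE v29 (GRCh38) and RefSeq (GRCh38.p14). The sequence of 1 member is not reported here. Genes named with values were TPX2, the 10 members, cell type markers, ALDH genes outside the members, and in 3 further lists those past the DEG criteria. ALDH5A1 and ALDH3B2 among the other ALDH genes, the markers EPCAM, NKX2-1, NAPSA, CD68 and PTPRC, and RARA, RARB, RARG, MYC and SOX2 were picked after their values were seen. The members and lists were chosen with earlier results of these data known. Alternatives were RLE factors, library size only, other filters, the replicate number as a block, DESeq2, FPKM, adjusted p-values and leaving out each library, where the lone library of a group is assumed to vary like the other group. Other experiments of the study were not analysed here.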

Additional observations from a re-analysis of the deposited data

How the results depend on the processing

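Of 90 alternative fold changes over the 9 members tested, 83 kept the direction and 7 changed sign, and none passed an adjusted p under 0.05. The sign changes were all in ALDH1A3, ALDH3B1 and ALDH9A1. Leaving out 1 library gave log2 fold changes of −0.66 to 0.48 for ALDH1A3, −0.44 to 0.23 for ALDH3B1 and −0.053 to 0.12 for ALDH9A1, and scaling by library size only gave −0.037 for ALDH9A1. Genes called by edgeR numbered 0 with 4 libraries, 0 to 23 with 1 left out (23 without shNC 1), and 111 with DESeq2, with 0 members called under each of these. DEGs over all genes numbered 1998, 1018 (without shTPX2 2) to 3515 (without shNC 1) with 1 library left out, and 1 with an adjusted p of at most 0.1, and DEGs among the members 6, 1 to 5, and 0. With 1 library left out, higher DEGs ranged from 495 to 1546 over all genes and from 1 to 4 among the members, and lower DEGs from 523 to 1969 and from 0 to 2. With library size only, DEGs split into 578 higher and 1445 lower (28.6% higher), against 876 and 1122 (43.8% higher), and members into 2 and 2. The summed level of the members in shTPX2 over shNC was 1.19 in TPM, 1.23 in FPKM and 1.10 to 1.29 with 1 library left out. With the replicate number as a block there were 2447 DEGs, 1084 higher and 1363 lower, and 6 members, edgeR called 0 genes, and the log2 fold change of ALDH1A1 was 1.13. Across 14048 genes, the deviations from the group means of libraries with the same number had a correlation of 0.182. With 2 libraries per group the deviations within a group mirror each other, so this value cannot settle whether the libraries are paired. The numbers were not read as pairing them. The cause of each of these changes was not tested. The lowest counts among the members were those of ALDH1A2, with at most 14.6 expected counts in a library, and ALDH2, with 35 to 156. How far depth limited their values was not tested.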

Other observations

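The table lists an average per group beside the libraries, and it is not the mean of the 2 libraries described here. In TPM the authors' average lay within 0.006 TPM of that mean for 2.90% of the genes above 0 in shNC and 2.55% in shTPX2, and lay outside the range of the 2 libraries for 10506 and 13012 genes. For ALDH1A1 the authors' average was 22.6 TPM in shNC and 37.9 TPM in shTPX2, both below the 2 libraries of that group. For ALDH3A1, where the libraries have means of 167 and 222.5 TPM, it was 111.3 and 111.6 TPM. For ALDH1B1 it was 28.4 and 43.1 TPM, above all libraries of each group, and for ALDH2 8.76 and 6.43 TPM, also above them. The direction between the groups was the same in both kinds of average for 8 of the 10 members and opposite for ALDH3A2 and ALDH9A1. ALDH3A2, at 84.1 and 82.7 TPM, was lower in shTPX2 in the authors' average and higher in the mean of the 2 libraries, and ALDH9A1, at 49.8 and 53.7 TPM, was the reverse. Multiplied by 3 in shNC and by 4 in shTPX2, the averages gave values of 2 decimals, as the libraries have, for 100% of the genes, within 0.0005. What the averages were taken over is not given in the sources used here.

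The length that count and TPM imply for a gene can differ between libraries where transcripts of different length are estimated. Relative to the median gene of each library, it differed between the highest and lowest library by 1.01 to 1.02 times for 9 members and by 1.12 times for ALDH1A2, which has the fewest counts.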
